A study of Mus musculus with 6 samples.

Results

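The genes described here are 36 cadherins and epithelial junction genes, chosen by name for their known place at cell contacts. They were chosen with earlier results of these data known. They are 9 adherens junction genes, 2 atypical cadherins, 8 desmosome genes, 14 tight junction genes, and Epcam with the polarity genes Crb3 and Pard3. All 36 were found among the 46078 gene identifiers that were counted. Comparisons were made for the 12078 identifiers that averaged 1 CPM or more across the libraries, and 24 of the 36 were among them. CPM stands for counts per 1000000 scaled reads.

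Epithelial cells are held together by a stack of junctions. In the adherens junction, classical cadherins bind across the gap between cells and reach the actin cytoskeleton through beta-, p120- and alpha-catenin. In the desmosome, desmogleins and desmocollins reach keratin filaments through plakoglobin, plakophilins and desmoplakin. Tight junctions seal the space between cells with claudins and occludin, held by the ZO scaffold proteins, and polarity proteins place this seal at the apical side. E-cadherin is the main classical cadherin of lung epithelium.

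RNA came from 6 cultures of MLE12, an immortalized line of mouse lung epithelium, and each group had 1 library. The parental (wild-type) line was collected either without a scratch or 24 hours after a confluent layer had been scratched with a pipet tip. The 4 other libraries came from Lingo1, Lingo2, Lingo3 and TROY knockout lines, all scratched and also collected after 24 hours. The Lingo genes encode leucine-rich repeat membrane proteins known from neurons, and TROY, the product of Tnfrsf19, belongs to the tumour necrosis factor receptors. How the knockout lines were made and whether each is 1 clone is not given in the sources used here. No unscratched culture of a knockout line was among the libraries, so a response to the scratch cannot be told apart in those lines from a difference that was there before it. With 1 library a group, no difference between lines can be told apart from a difference between cultures, and no p-value was computed.

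The libraries held between 28109825 and 30776294 counts in genes. Libraries are called by their labels, which the targeted genes checked little. Lingo1 had 744 counts in the scratched parental library, fewer than the 1579 of the library labelled Lingo1 knockout, Lingo2 had 0 counts throughout, Lingo3 had 1 count in total and Tnfrsf19 13. The scratched parental library, which is the control of all 4 knockout comparisons, held 99 genes that had 10 or more counts and stood 4 times or more above each of the other libraries, and 70 of them were pseudogenes. The Lingo3 knockout library held 71 such genes, and each of the other 4 libraries held at most 1. Of the 36 genes, Pkp3 in the Lingo3 knockout was the 1 among them, and of the further junction genes listed below Cdh5 and Cldn5 were, both in the scratched parental library, with 20 and 11 counts there and at most 1 elsewhere. The share of aligned reads in no counted feature was 7.80% and 8.02% in the parental libraries and between 4.98% and 6.41% in the knockouts, and its part in the results was not tested.

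The label of the cells was checked against marker genes. Krt8 stood between 309 and 505 CPM, Krt19 between 1145 and 1492 CPM and the lung transcription factor gene Nkx2-1 between 160.4 and 205 CPM, while Krt18 stayed between 0.296 and 0.465 CPM. Epcam, a standard epithelial marker, did not exceed 8.46 CPM. The 8 mesenchymal markers summed to 3768 and 3458 CPM in the parental libraries and to between 4034 and 4818 CPM in the knockouts. These sums came mostly from Dcn and Vim. Acta2, Col1a2 and Col3a1 were at or near 0 in the parental libraries. In the knockouts they reached at most 0.197 CPM, except for Col3a1 at 2.03 CPM in the Lingo3 knockout. Pdgfra stood at 1.61 and 1.71 CPM in the parental libraries and between 2.49 and 6.69 CPM in the knockouts, highest in the Lingo3 knockout. Col1a1 was higher in each knockout, at 62.3 and 44.8 CPM in the parental libraries and between 135.7 and 398 CPM in the knockouts, and Pdgfrb stood at 0.105 CPM or less in the parental libraries and between 0.432 and 11.4 CPM in the knockouts. The 6 lung epithelial markers summed to 565 and 508 CPM in the parental libraries and to between 597 and 755 CPM in the knockouts, where the surfactant gene Sftpb was higher in all 4 and Sftpc in all but the TROY knockout. The 6 endothelial markers summed to 102.8 and 95.4 CPM in the parental libraries and to between 162 and 188 CPM in the knockouts, nearly all from the angiopoietin receptor gene Tek. Cdh5, the defining endothelial cadherin, had 0.658 CPM in the scratched parental library and at most 0.0361 CPM elsewhere, and Emcn was at 0 in 5 libraries. Vwf and Kdr were also highest in the scratched parental library, the control of the knockout comparisons, against the direction of the sum. Vwf, encoding von Willebrand factor, stood at 5.56 CPM there, at 0.558 CPM in the unscratched parental library and between 0.389 and 1.21 CPM in the knockouts, and so passed the size rule given below as higher with the scratch and lower in all 4 knockouts. Vwf reached the mean of 1 CPM needed for a comparison only through the scratched parental library, which favours these calls. Kdr stood at 2.43 CPM there, at 0.419 CPM unscratched and between 0.460 and 0.758 CPM in the knockouts. The 6 leukocyte markers summed to between 1.80 and 3.48 CPM, with the pan-leukocyte gene Ptprc at 0 in 3 libraries and at most 0.108 CPM elsewhere. The part of these marker genes in the results below was not tested.

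Ctnnb1, which encodes beta-catenin, had the highest level per length in every library. Levels of different genes are compared as the authors' deposited RPKM, reads per 1000 bases of transcript and per 1000000 reads, which were listed for 24 of the 36 genes. In the scratched parental library Ctnnb1 stood at 315.02 RPKM, Ctnna1 at 222.93, F11r at 182.77, Jup at 156.62 and Cdh1 at 135.15. Tjp1 followed at 47.02, Pkp2 at 27.86 and Dsp at 25.37 RPKM. The neighbours Cgn, Crb3 and Ocln, at 7.98, 7.59 and 7.29 RPKM, changed places from library to library. The lowest listed genes were Pkp1 at 0.79 and Cldn3 at 0.42 RPKM. With CPM divided by the length of all annotated exons, F11r and Cdh1, at 173.8 and 131.7, came before Ctnna1, at 129.1, so the order of near neighbours rests on the gene length used.

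**Figure D1:**
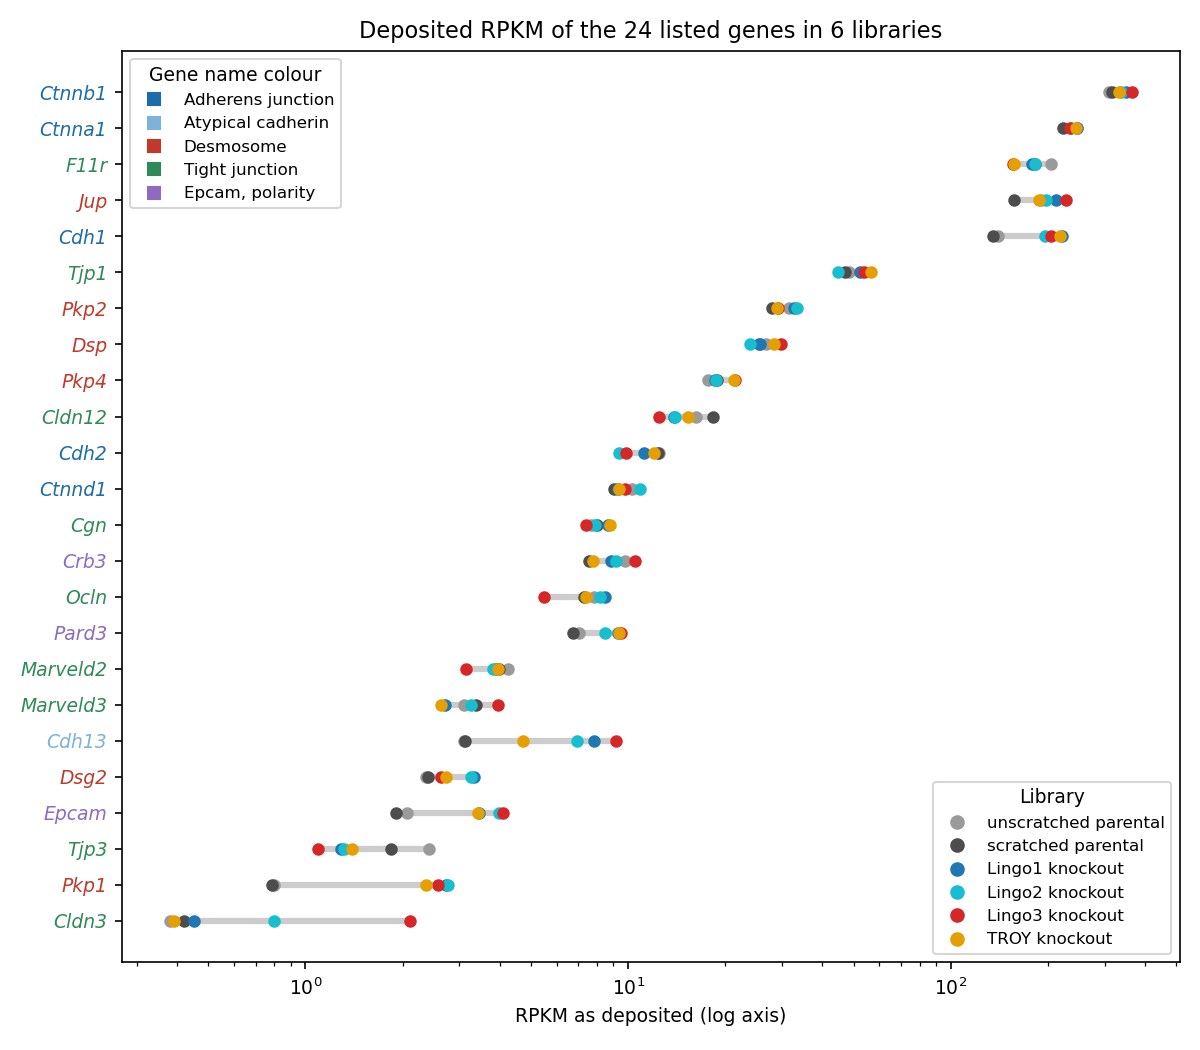
Deposited RPKM on a log axis for the 24 listed genes, 1 point per library, with genes ordered by the scratched parental library and names coloured by class. The grey bar joins the lowest and highest library of each gene. Most genes span a narrow range, while the points of Pkp1, Cdh13, Epcam, Tjp3 and Cldn3 spread apart.

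The 12 genes that averaged under 1 CPM were not compared further. They are not the same as the genes without a deposited RPKM. Cldn3 had an RPKM but averaged under 1 CPM, while Cdh4 had none and was compared. Cdh6 had 0 counts in all 6 libraries, which allows up to between 0.0984 and 0.108 CPM by the floor of 3 counts. Cdh16, Dsc2, Cldn4, Cldn6, Cldn7, Cdh11 and Cldn18, the last a claudin gene of lung and stomach, had at most 4 counts in any library. Cdh3, encoding P-cadherin, had 2 and 1 counts in the parental libraries and 9, 8, 2 and 8 counts in the Lingo1, Lingo2, Lingo3 and TROY knockouts. Cldn1, Pkp3 and Cldn3 are described with their classes.

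The first comparison asked which junction transcripts differed between the scratched and the unscratched parental cultures, and none of the 24 genes passed the size rule. The rule asked for a 2-fold difference or more, higher or lower, with a 95% interval whose nearer bound lay beyond 1.5-fold. Intervals are exact Clopper-Pearson intervals of the 2 counts and cover counting error only. Of all genes tested, 0.0828% passed. The scratched library was below the unscratched one for 17 of the 23 genes other than Cdh4, against 6469 of the 12078 tested. The median log2 ratio was -0.06 over 5 adherens junction genes, -0.06 over 6 desmosome genes and -0.08 over 8 tight junction genes. The ratios farthest from 1 were those of Tjp3, which encodes the scaffold ZO-3, at 0.752 (0.611 to 0.924), of the polarity gene Crb3 at 0.771 (0.656 to 0.906), and of Jup, which encodes plakoglobin, at 0.817 (0.7998 to 0.835). The pair of parental cultures differed by at most 0.41 on the log2 scale over these 23 genes, and in this gap the scratch and the difference between cultures cannot be told apart.

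The knockout comparisons asked which junction transcripts differed in each knockout from the scratched parental line. In the Lingo1 knockout 3 of the 24 genes were higher, Cdh4, Cdh13 and Pkp1, where 1.95% of all genes tested were. In the Lingo2 knockout 4 were higher, Cdh4, Cdh13, Pkp1 and Epcam, where 2.12% of all genes were. In the Lingo3 knockout 4 were higher, again Cdh4, Cdh13, Pkp1 and Epcam, where 4.63% of all genes were. In the TROY knockout 2 were higher, Cdh4 and Pkp1, where 1.06% of all genes were. By the same rule 0 of the 24 were lower in any of the 4 knockouts, where 1.67%, 1.38%, 2.56% and 1.18% of all genes were lower in the Lingo1, Lingo2, Lingo3 and TROY knockouts. With the unscratched parental library as the control, 3, 3, 4 and 2 of the 24 passed in either direction, beside 3.17%, 2.95%, 6.85% and 2.25% of all genes. The 4 comparisons share their control library, so these counts are not independent of each other. Because the genes were chosen with earlier results of these data known, the counts are no support for a change of the set. Cdh4 reached the mean of 1 CPM only through its knockout counts and had to differ, and without it the counts were 2, 3, 3 and 1 of 23. In bulk RNA, fewer cells that carry a transcript and less of it per cell cannot be told apart.

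**Figure D2:**
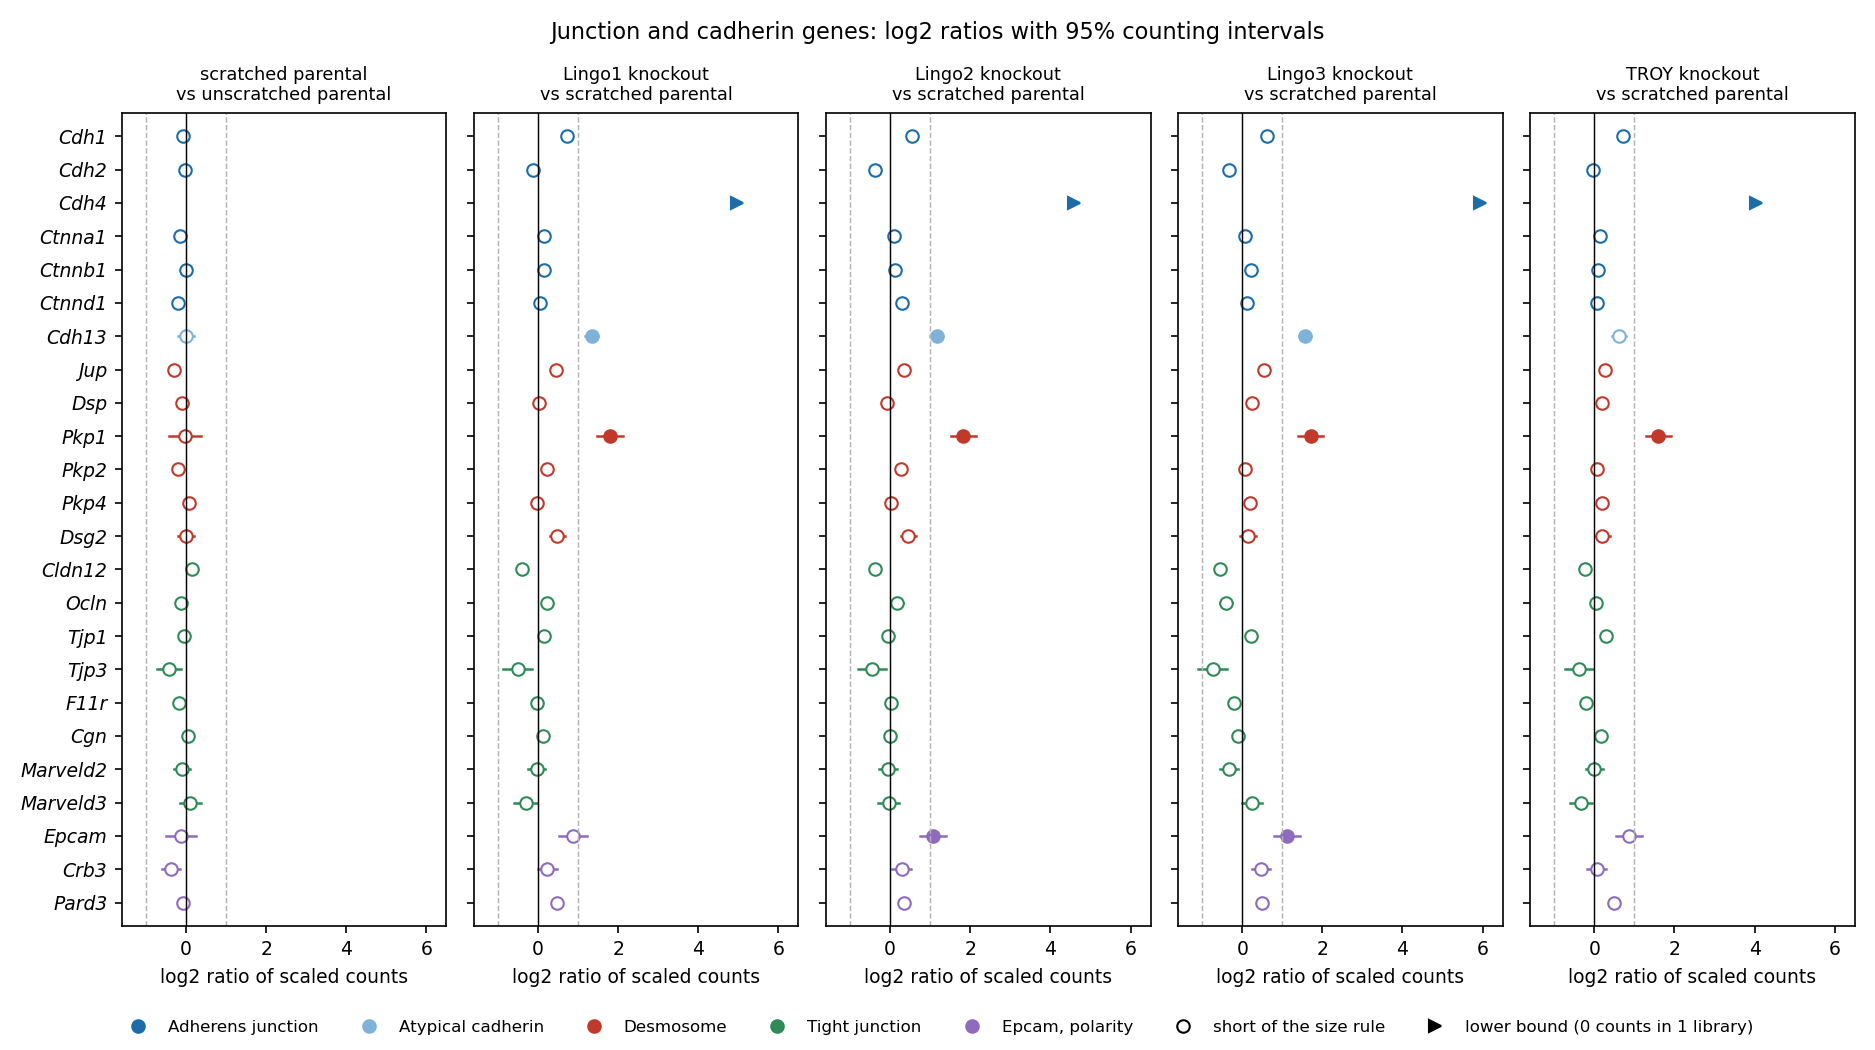
Log2 ratio of scaled counts for the 24 genes compared, with 1 panel per comparison, points coloured by class and lines for 95% counting intervals. Filled symbols passed the size rule, and dashed lines mark a 2-fold difference. Triangles, which the legend calls lower bounds, are ratios to the floor of 3 counts. Cdh4 and Pkp1 lie beyond the line in all 4 knockout panels, and no gene lies beyond it in the scratch panel.

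Among the adherens junction genes, R-cadherin stood out and E-cadherin moved less than 2-fold. Cdh4 (ENSMUSG00000000305, chromosome 2, 179442431 to 179899373, GRCm38) encodes R-cadherin, a classical cadherin known from retina, brain and kidney. Cdh4 had 1 count in the unscratched and 0 counts in the scratched parental library, and 85, 67, 184 and 49 counts in the Lingo1, Lingo2, Lingo3 and TROY knockouts. These counts are 3.07, 2.37, 6.04 and 1.63 CPM. No knockout library came near the parental pair. Against a floor of 3 counts in the scratched parental library, Cdh4 was at least 31.1-fold, 24.0-fold, 61.2-fold and 16.5-fold higher. The ratio to the 1 count of the unscratched library was 87.9 (15.4 to 3513) in the Lingo1 knockout and 46.7 (7.99 to 1881) in the TROY knockout.

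Cdh4 remained a minor cadherin where it was detected. Per length of annotated exon it reached 0.195%, 0.169%, 0.414% and 0.105% of the Cdh1 level in the Lingo1, Lingo2, Lingo3 and TROY knockouts. As a share of the Cdh2 level it came to 6.22%, 5.70%, 13.9% and 3.05%. These shares use the same exon lengths throughout, and the deposited RPKM table did not list Cdh4.

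Cdh1 (ENSMUSG00000000303, chromosome 8, 106603351 to 106670246), which encodes E-cadherin, measured 629.8 and 602 CPM in the unscratched and scratched parental libraries. In the Lingo1, Lingo2, Lingo3 and TROY knockouts it stood at 992, 883, 918 and 982 CPM. All 4 knockout libraries lay above both parental libraries, and the knockouts lay within 1.12-fold of each other. Relative to the scratched parental library, Cdh1 was at 1.65 (1.62 to 1.68), 1.47 (1.44 to 1.49), 1.52 (1.496 to 1.55) and 1.63 (1.60 to 1.66) times the level. None of these ratios reached the 2-fold size.

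Cdh2, encoding N-cadherin, stood at 61.4 and 60.3 CPM in the unscratched and scratched parental libraries and at 54.9, 46.2, 48.3 and 59.4 CPM in the Lingo1, Lingo2, Lingo3 and TROY knockouts. All 4 knockout values were below the parental pair, though the TROY value was within counting error of it, with a ratio of 0.985 (0.923 to 1.05). The ratio was lowest in the Lingo2 knockout, at 0.767 (0.714 to 0.824). From the deposited RPKM, Cdh1 stood 11.2 and 10.9 times above Cdh2 in the parental libraries and 19.8, 20.9, 20.8 and 18.1 times above it in the knockouts. Per annotated exon length these ratios were 18.1 and 17.6 in the parental libraries and between 29.2 and 33.7 in the knockouts.

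The catenins varied little. Ctnnb1 stood at 1140.3 and 1148 CPM in the parental libraries and at 1277, 1242, 1335 and 1229 CPM in the Lingo1, Lingo2, Lingo3 and TROY knockouts, all 4 above the parental pair and none by more than 1.16 times the scratched level. Reads of the 759 exon bases that Ctnnb1 shares with Ulk4 on the opposite strand, 14.6% of its exons, could belong to either gene where strand was not counted. Ctnna1, encoding alpha-catenin, ranged from 829 to 927 CPM, lowest in the scratched and highest in the unscratched parental library. Ctnnd1, encoding p120-catenin, ranged from 57.9 to 70.7 CPM, highest in the Lingo2 knockout. Of its exon bases 61.2% overlap the predicted gene Gm28635 on the same strand, which had 0 counts. How reads in shared bases were counted is not given in the sources used here. Such reads may have been counted for neither gene, so the 0 counts do not show that the Ctnnd1 level was unaffected. Over the 6 adherens junction genes compared, the median log2 ratio was 0.15, 0.20, 0.17 and 0.12 in the Lingo1, Lingo2, Lingo3 and TROY knockouts, beside 0.01, 0.02, 0.01 and 0.02 over all genes tested. Without Cdh4 the 4 medians were 0.15, 0.11, 0.13 and 0.10.

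Cdh13 (ENSMUSG00000031841, chromosome 8, 118283733 to 119324921) encodes T-cadherin, an atypical cadherin held in the membrane by a lipid anchor and without a cytoplasmic tail to bind catenins. It stood at 14.4 CPM in both parental libraries and at 36.3, 32.1, 42.4 and 22.0 CPM in the Lingo1, Lingo2, Lingo3 and TROY knockouts. The parental libraries differed least for this gene, and each knockout lay above them. Cdh13 was 2.53-fold (2.25 to 2.83), 2.24-fold (1.99 to 2.51) and 2.95-fold (2.65 to 3.30) higher in the Lingo1, Lingo2 and Lingo3 knockouts. In the TROY knockout the ratio of 1.53 (1.36 to 1.73) fell short of the size rule. The direct ratio of the TROY to the Lingo3 library, 0.518 (0.471 to 0.570), also fell short, by a small margin. Cdh16, the other atypical cadherin on the list, known from kidney, had 2 counts in all, 1 each in the Lingo1 and TROY knockouts.

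**Figure D3:**
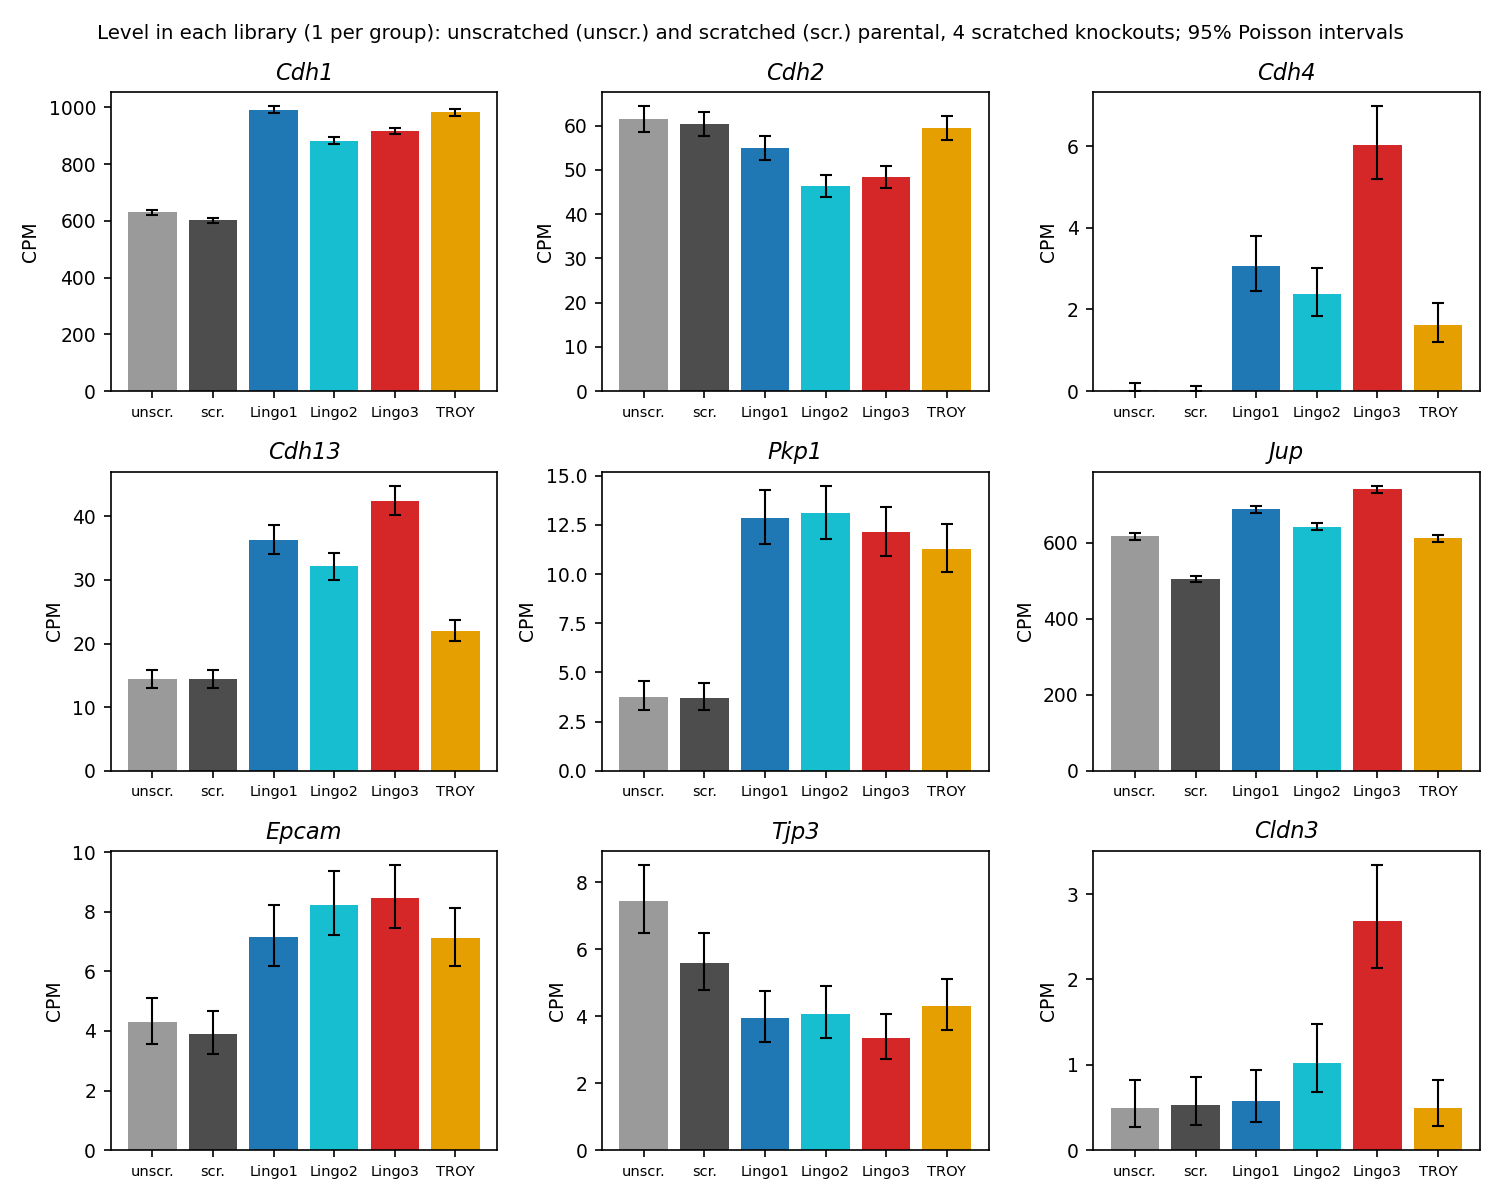
CPM of 9 genes in each of the 6 libraries, as bars from 0 with 95% Poisson intervals and 1 library per bar. Cdh1, Cdh4, Cdh13, Pkp1 and Epcam are higher in all 4 knockout bars than in both parental bars, Cdh2 and Tjp3 lower, and Cldn3 is highest in the Lingo3 knockout.

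Of the desmosome genes, only the plakophilin gene Pkp1 passed the rule, in all 4 knockouts. Pkp1 (ENSMUSG00000026413, chromosome 1, 135871395 to 135919207) encodes plakophilin 1, an armadillo protein that strengthens desmosomes and is best known from stratified epithelia. Pkp1 measured 3.77 and 3.71 CPM in the unscratched and scratched parental libraries, and 12.9, 13.1, 12.1 and 11.3 CPM in the Lingo1, Lingo2, Lingo3 and TROY knockouts. The knockouts lay within 1.16-fold of each other and did not overlap the parental pair. Pkp1 was 3.46-fold (2.79 to 4.31), 3.52-fold (2.85 to 4.39), 3.27-fold (2.64 to 4.07) and 3.03-fold (2.44 to 3.79) higher. With the unscratched library as the control the fold was between 2.99 and 3.47.

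The main plakophilin of these cells did not follow. Pkp2, the plakophilin of simple epithelia and heart, ranged from 82.1 to 99.5 CPM, lowest in the scratched parental library and highest in the Lingo2 knockout. In deposited RPKM, Pkp1 amounted to 0.0253 and 0.0284 of the Pkp2 level in the parental libraries and to between 0.0820 and 0.0880 in the knockouts. Pkp4, an adhesion protein related to p120-catenin, ranged from 83.0 to 100.4 CPM. Pkp3 had 0 counts in both parental libraries, 2 counts each in the Lingo1, Lingo2 and TROY knockouts and 15 in the Lingo3 knockout. The last was 4.99-fold above the floor of 3 counts in the scratched parental library. These were too few counts for Pkp3 to be among the genes compared.

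Jup, whose product plakoglobin serves both desmosomes and adherens junctions, stood at 618 and 505 CPM in the unscratched and scratched parental libraries and at 688, 642, 741 and 612 CPM in the Lingo1, Lingo2, Lingo3 and TROY knockouts. The groups overlapped, since the TROY knockout lay just below the unscratched library. Against the scratched library the Jup ratios ran from 1.21 in the TROY knockout to 1.47 (1.44 to 1.498) in the Lingo3 knockout, and against the unscratched one from 0.991 to 1.199, so much of the size of this ratio rests on which parental library is the control.

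Dsp, encoding desmoplakin, which ties the plaque to keratin, ranged from 232 CPM in the Lingo2 knockout to 289 CPM in the Lingo3 knockout. The desmosomal cadherin gene Dsg2 stood at 13.8 and 13.9 CPM in the parental libraries and at 19.4, 19.1, 15.4 and 16.0 CPM in the Lingo1, Lingo2, Lingo3 and TROY knockouts. All 4 were above the parental pair, with ratios up to 1.39 (1.22 to 1.59). Its usual partner Dsc2 had 1 count in each of the Lingo2 and TROY knockouts and 0 elsewhere. Over the 6 desmosome genes compared, the median log2 ratio was 0.34, 0.31, 0.22 and 0.20 in the Lingo1, Lingo2, Lingo3 and TROY knockouts. With the unscratched control the first 2 of these medians were 0.11 and 0.08.

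None of the 8 tight junction genes compared passed the rule, and their ratios lay on both sides of 1. The median log2 ratio was -0.03, -0.04, -0.28 and -0.10 in the Lingo1, Lingo2, Lingo3 and TROY knockouts. Of the 8 ratios 5, 6, 6 and 4 were below 1, beside 5892, 5660, 5946 and 5619 of all 12078 genes tested. Each median of the 8 genes was below those of the adherens junction and desmosome genes in the same knockout, and this order of the 3 classes was not tested. Over the 16 other tight junction genes described below, the medians were 0.05, -0.07, 0.09 and 0.05. No tight junction gene had all 4 knockouts above both parental libraries, while Tjp3 and Cldn12, 2 of the 8, had all 4 below. Of all genes tested, 24.2% had all 4 above and 21.9% all 4 below, so the second count is near that background.

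Tjp3 (ENSMUSG00000034917, chromosome 10, 81273207 to 81291581) encodes ZO-3, 1 of the ZO scaffolds under claudins and occludin. It measured 7.43 and 5.59 CPM in the unscratched and scratched parental libraries, and 3.93, 4.07, 3.35 and 4.29 CPM in the Lingo1, Lingo2, Lingo3 and TROY knockouts. The knockouts lay below both parental libraries, which themselves differed more for Tjp3 than for any other of the 23 genes. The ratio to the scratched library was 0.704 (0.548 to 0.901), 0.728 (0.570 to 0.928), 0.599 (0.464 to 0.770) and 0.767 (0.606 to 0.970), short of the size rule. Against the unscratched library Tjp3 was lower in the Lingo3 knockout, 2.22-fold (1.75 to 2.84). Tjp1, which encodes ZO-1 and stood at 47.02 RPKM beside 1.84 for Tjp3 in the scratched parental library, ranged from 322 CPM in the Lingo2 knockout to 408 CPM in the TROY knockout.

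Cldn12 encodes a claudin that is expressed in many tissues. It stood at 61.9 and 69.1 CPM in the unscratched and scratched parental libraries and at 52.7, 53.5, 47.4 and 58.7 CPM in the Lingo1, Lingo2, Lingo3 and TROY knockouts. The ratio of Cldn12 to the scratched library was between 0.686 (0.641 to 0.733) in the Lingo3 and 0.850 (0.797 to 0.906) in the TROY knockout.

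Cldn3 (ENSMUSG00000070473, chromosome 5, 134986214 to 134987472) encodes a sealing claudin of simple epithelia and had 14, 16, 16, 29, 82 and 15 counts in the unscratched and scratched parental libraries and the Lingo1, Lingo2, Lingo3 and TROY knockouts. These are 0.489, 0.526, 0.578, 1.03, 2.69 and 0.499 CPM, a mean just under the level needed for a comparison. In the Lingo3 knockout the ratio was 5.11 (2.97 to 9.36), and the Lingo2 ratio of 1.95 (1.02 to 3.85) rested on few counts. Cldn4, its neighbour 39.3 kb away, had 1 count in all. Cldn1 had 7 counts in each parental library and 22, 18, 5 and 18 counts in the Lingo1, Lingo2, Lingo3 and TROY knockouts, with intervals too wide to pass the rule.

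Ocln, encoding occludin, stood at 32.3 and 29.7 CPM in the unscratched and scratched parental libraries and at 34.8, 33.8, 22.4 and 30.5 CPM in the Lingo1, Lingo2, Lingo3 and TROY knockouts. The Lingo3 value was the lowest of the 6, with a ratio of 0.755 (0.683 to 0.835). Marveld2, encoding tricellulin, which seals the corners where 3 cells meet, lies 43.2 kb from Ocln and was also lowest in the Lingo3 knockout, at 9.91 CPM in a range up to 13.4. Marveld3, the third member of that family, was highest there, at 9.81 CPM in a range that began at 6.55 in the TROY knockout. F11r, encoding the junctional adhesion molecule JAM-A, ranged from 398 CPM in the Lingo3 knockout to 523 CPM in the unscratched parental library. Cgn, encoding the plaque protein cingulin, ranged from 37.7 to 45.0 CPM.

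Epcam (ENSMUSG00000045394, chromosome 17, 87635979 to 87651129) encodes an adhesion molecule of epithelial cells that also holds claudins at the membrane. It stood at 4.29 and 3.91 CPM in the unscratched and scratched parental libraries and at 7.15, 8.24, 8.46 and 7.11 CPM in the Lingo1, Lingo2, Lingo3 and TROY knockouts. The knockouts did not overlap the parental pair. Epcam was 2.11-fold (1.68 to 2.65) higher in the Lingo2 and 2.16-fold (1.73 to 2.71) higher in the Lingo3 knockout. The Lingo1 and TROY ratios of 1.83 (1.45 to 2.31) and 1.82 (1.45 to 2.29) fell short of the rule, and the difference between the 2 pairs of lines was not tested. With the unscratched library as the control no Epcam ratio passed, the highest being 1.97 (1.58 to 2.46) in the Lingo3 knockout.

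The polarity gene Pard3, whose product marks the apical junction, stood at 41.6 and 39.5 CPM in the unscratched and scratched parental libraries and at 54.8, 50.3, 56.0 and 55.4 CPM in the Lingo1, Lingo2, Lingo3 and TROY knockouts. Its ratios ran from 1.27 (1.18 to 1.38) to 1.42 (1.32 to 1.53), and the knockouts lay above both parental libraries. Crb3, a small apical membrane protein gene, ranged from 9.21 CPM in the scratched parental library to 12.8 CPM in the Lingo3 knockout, with the unscratched parental library at 11.9 CPM.

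For Epcam, Tjp3 and Cldn3, whose levels differed among the libraries, the 250 bases before a RefSeq start are shown, since proteins of the Snail, Zeb and Twist families, known repressors of E-cadherin, bind the E-box. These 3 were chosen after their values were seen, and the promoter table held an entry for 22 of the 36 genes, with none for Cdh1, Cdh2, Cdh4, Cdh13 or Pkp1. The second entry of Tjp3, which overlaps an annotated exon, is not shown. Sequences are from RefSeq on build GRCm38.p6, at chr17:87635729-87635978 on the plus strand for Epcam, chr10:81291582-81291831 on the minus strand for Tjp3 and chr5:134985964-134986213 on the plus strand for Cldn3. Each is written 5′ to 3′ along its gene, and capitals mark the E-box CANNTG, which reads as CANNTG on both strands.
Epcam: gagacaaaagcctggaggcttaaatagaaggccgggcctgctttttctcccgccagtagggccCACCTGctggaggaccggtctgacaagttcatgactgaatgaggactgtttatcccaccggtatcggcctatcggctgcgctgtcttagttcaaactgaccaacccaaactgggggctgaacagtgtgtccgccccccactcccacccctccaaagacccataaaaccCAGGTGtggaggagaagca
Tjp3: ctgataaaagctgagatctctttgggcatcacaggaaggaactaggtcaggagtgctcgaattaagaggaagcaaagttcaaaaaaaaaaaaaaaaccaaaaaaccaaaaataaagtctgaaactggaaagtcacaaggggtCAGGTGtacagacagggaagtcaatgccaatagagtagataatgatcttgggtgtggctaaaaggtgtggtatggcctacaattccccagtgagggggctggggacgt
Cldn3: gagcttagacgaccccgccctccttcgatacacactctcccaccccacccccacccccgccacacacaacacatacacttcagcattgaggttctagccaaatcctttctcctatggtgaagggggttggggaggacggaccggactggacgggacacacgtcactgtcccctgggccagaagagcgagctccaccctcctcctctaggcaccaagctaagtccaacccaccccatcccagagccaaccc
Epcam holds 2 E-boxes, 187 and 19 bases before the start, Tjp3 holds 1, 108 bases before it, and Cldn3 holds none. The 3 boxes are all of the Snail type, CACCTG or its reverse complement. A match of letters is a description and no evidence of binding. Over the 34 promoter entries of the 22 genes, 61.8% held an E-box, against 66.2% of all 32851 entries of the same length. The Snail-type box was in 35.3% of the 34 entries and 17.2% of all entries, and the GC box GGGCGG, read on both strands, in 70.6% and 32.7%. Some of the 34 entries overlap another entry of the same gene or an annotated exon. Base composition was not matched, and the differences between these shares were not tested.

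Of the 9 listed repressors of E-cadherin, 8 were compared. Twist1 was lower in all 4 knockouts, at 2.51 and 2.27 CPM in the unscratched and scratched parental libraries and at 0.180, 0.212, 0.262 and 0.698 CPM in the Lingo1, Lingo2, Lingo3 and TROY knockouts. Twist1 was compared only because of its parental counts, which favours a call of lower. Snai1 went the other way, at 2.86 and 2.66 CPM in the parental libraries and 5.56, 4.95, 5.81 and 4.79 CPM in the knockouts, and passed the rule in the Lingo1 and Lingo3 knockouts at 2.09-fold and 2.18-fold. Against the unscratched library the Lingo1 ratio of Snai1 was short of 2-fold. The median log2 ratio of the 8 genes lay between -0.11 and 0.05 in the 4 knockouts.

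Of 8 compared regulators that favour epithelial genes, 3 were higher in the Lingo3 knockout, where 4.63% of all genes tested were, and none in the others. They were the transcription factor genes Elf3, 5.67-fold, and Grhl2, 2.44-fold, and the splicing factor gene Esrp1, 2.69-fold. The Grhl2 value of 2.89 CPM was short of 2-fold against the 1.54 CPM of the unscratched parental library. Elf3 stood at 0.625 CPM in the scratched parental and 3.54 CPM in the Lingo3 knockout library. Elf3 and Esrp1 were under 1 CPM in both parental libraries and were compared only because of their knockout counts, which favours a call of higher, so the count and the list median are no support for a change of the list. The list median was 0.45, 0.39, 0.86 and 0.47 on the log2 scale in the Lingo1, Lingo2, Lingo3 and TROY knockouts.

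Calls among further junction genes are given by list in this and the next paragraph. Of all genes tested, 1.95%, 2.12%, 4.63% and 1.06% were higher in the Lingo1, Lingo2, Lingo3 and TROY knockouts. The shares that were lower were 1.67%, 1.38%, 2.56% and 1.18%. The lists are short, and their counts were not tested against these shares. Of 7 other cadherins compared, Celsr1, a planar polarity cadherin, was higher in all 4 knockouts, at 2.65 and 2.63 CPM in the parental libraries and 7.47, 6.76, 18.7 and 5.45 CPM in the Lingo1, Lingo2, Lingo3 and TROY knockouts. The giant cadherin gene Fat2 was higher in the Lingo3 knockout, from 3.98 to 14.3 CPM. Of 17 other adherens junction genes, Ctnna2, the alpha-catenin gene of neurons, was lower in the Lingo3 knockout, 2.91-fold, and none was higher in any knockout. Of 3 other desmosome genes, Evpl, which encodes the cornified envelope protein envoplakin, was 2.16-fold higher in the Lingo3 knockout. Its 516 CPM there was short of 2-fold against the 315 CPM of the unscratched parental library.

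Of 16 other tight junction genes, Cgnl1, encoding paracingulin, was higher in the Lingo1 knockout, 2.13-fold, and in the Lingo3 knockout, 3.64-fold. Cldn23 was 4.23-fold higher in the Lingo3 and 2.68-fold higher in the TROY knockout, from 0.559 CPM in the scratched parental library. Cldn23, like the gap junction gene Gjb5 below, was under 1 CPM in both parental libraries and was compared only because of its knockout counts, which favours a call of higher. Cldn15, a claudin that forms cation pores, was 2.28-fold lower in the Lingo3 knockout. Of 16 other polarity genes, Pard6g was 2.47-fold higher and Crb2 was 2.96-fold lower, both in the Lingo3 knockout. The Pard6g value of 14.0 CPM was short of 2-fold against the 7.22 CPM of the unscratched library. Among 6 gap junction genes, the connexin gene Gjb5 was between 3.53-fold and 3.81-fold higher in the Lingo1, Lingo2 and Lingo3 knockouts. None of 3 partners of Epcam and none of 4 genes of cadherin shedding passed in any knockout, and no compared gene of these lists passed with the scratch.

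The libraries were also set against each other for the 24 genes. All 4 knockouts lay above both parental libraries for 8 of them, Cdh1, Cdh4, Ctnnb1, Cdh13, Pkp1, Dsg2, Epcam and Pard3, while 24.2% of all genes tested did so. All 4 lay below for 3, Cdh2, Cldn12 and Tjp3, against 21.9% of all genes tested, and neither count is read as a result about these genes. The Lingo3 knockout was the highest library for 9 of the 24 and the lowest for 6, and the scratched parental library was the lowest for 11. The matching shares of all genes tested were not computed, so these counts are likewise not read as a result about the 24 genes.

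Among the 6 pairs of knockout libraries, Cdh4 was the only one of the 24 genes past the size rule. It was 2.55-fold (1.92 to 3.42) higher in the Lingo3 than in the Lingo2 knockout, where 1.61% of all genes passed, and 3.71-fold (2.69 to 5.19) lower in the TROY than in the Lingo3 knockout, where 2.61% passed. In the 4 other pairs 0 of 24 passed, beside 0.0166% for Lingo2 against Lingo1, 1.65% for Lingo3 against Lingo1, 0.215% for TROY against Lingo1 and 0.364% for TROY against Lingo2. The ratio of the Lingo3 to the Lingo1 count of Cdh4, 1.97 (1.51 to 2.57), stopped just short.

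The surroundings of Cdh4, Pkp1, Cdh13 and Epcam, which passed the rule, and of Cdh1, which did not, were examined within 1000 kb of their starts, with the genes and the window chosen after the values were seen. Of all genes tested, 0.729% were higher in all 4 knockouts, and neighbouring genes are not independent of each other. Around Cdh4, 1 of 13 compared genes was higher in all 4 knockouts, the transcription factor gene Gata5, 892 kb away, with log2 ratios of 4.42, 4.72, 5.48 and 4.26 in the Lingo1, Lingo2, Lingo3 and TROY knockouts. Gata5 had at most 0.263 CPM in the parental libraries and, like Elf3 near Pkp1, was compared only because of its knockout counts. The 12 genes closer to Cdh4 fell short of the rule in all 4 knockouts. Around Pkp1, 3 of 27 genes were higher in all 4 knockouts, the kinesin gene Kif21b, the troponin gene Tnnt2 and Lad1, which encodes a basement membrane filament protein. Tnnt2 and Lad1 lie 82.9 and 100.6 kb from the start of Pkp1, with log2 ratios between 1.34 and 1.78 and between 1.07 and 1.56, and Kif21b lies 212 kb to its other side. Shisa4 passed in the Lingo1, Lingo2 and Lingo3 knockouts, and Elf3 and Lgr6 in the Lingo3 knockout. Of 43 genes around Cdh1, Has3 was lower in the Lingo3 knockout, of 14 around Epcam, Ttc7 was higher there, and the 1 gene compared around Cdh13 did not pass.

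**Figure D4:**
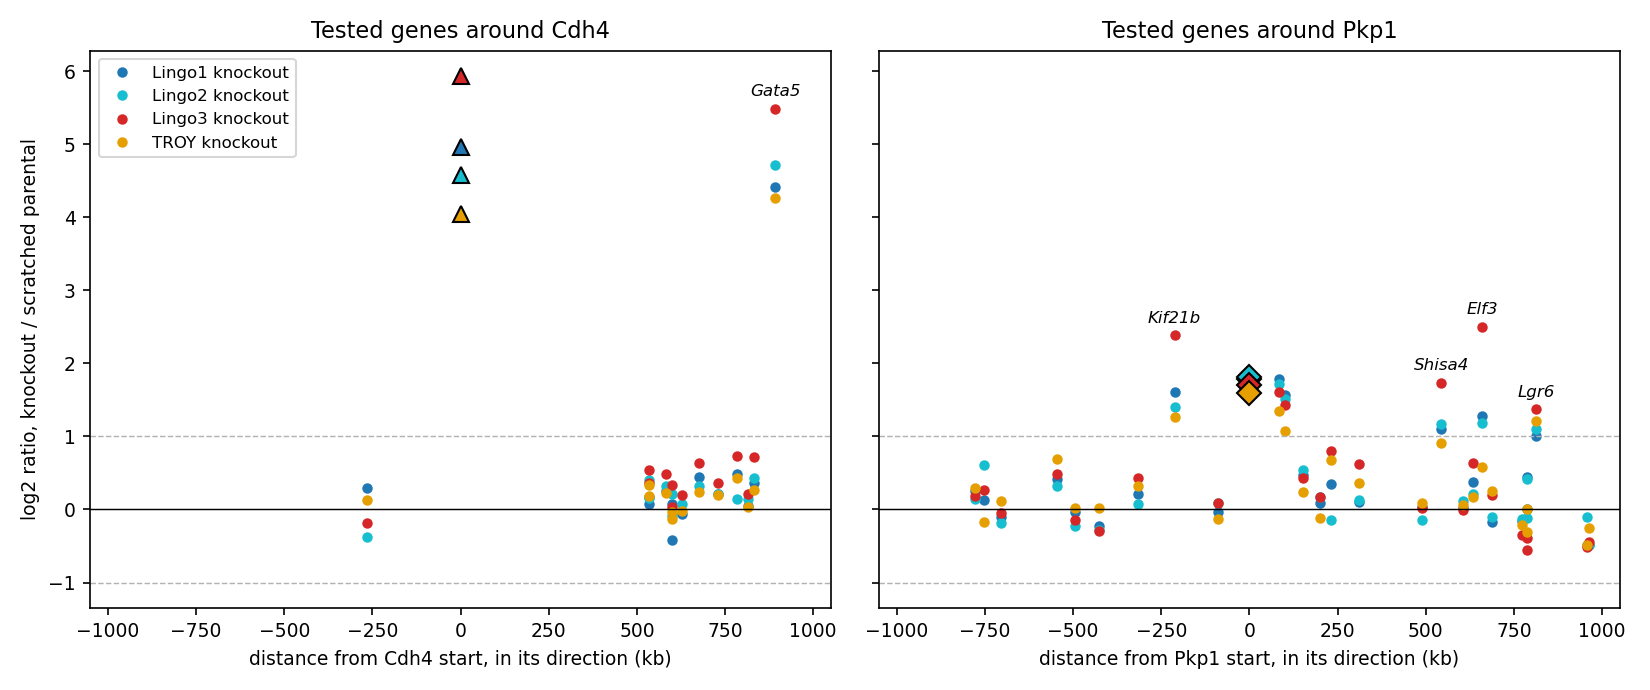
Log2 ratio of each knockout to the scratched parental library for genes compared within 1000 kb of the starts of Cdh4 and Pkp1, against distance in kb in the direction of the gene. Triangles (ratios to the floor of 3 counts) and diamonds at 0 are Cdh4 and Pkp1, and dashed lines mark a 2-fold difference. Gata5 stands apart at 892 kb from Cdh4, while several genes on both sides of Pkp1 lie above the upper line.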

How the data were processed

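Libraries were made with an Illumina TruSeq mRNA kit, per the labels' protocols. The authors deposited raw read counts per Ensembl gene, and a table of RPKM values with log2 ratios of 5 comparisons and no p-value, whose library names and headers were matched to the labels. The submitters' processing notes name Trimmomatic 0.39, STAR, HTSeq, edgeR and the build GRCm38. Whether counting used strand is not given in the sources used here. Since the header names no unit, RPKM was inferred from the values.

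Counts were scaled by TMM (edgeR 4.0.16, R 4.3.3) over all 6 libraries. Identifiers were matched to GENCODE M21 (45229 of 46078). Folds are ratios of scaled counts with exact 95% intervals (SciPy 1.17.1), and levels have Poisson intervals. Both cover counting error only, since reads carry no molecular identifiers and copies of 1 molecule may be counted repeatedly. A library with 0 counts was set to a floor of 3. The 4 knockout comparisons share 1 control. The size rule was tested on simulated data.

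The genes and lists were chosen with earlier results of these data known. Beyond the 36 genes, list genes past the rule in at least 1 comparison were named, up to 4 per list. Of 182 genes on the 15 other lists, 5 names had no match. Of the authors' deposited log2 ratios, those of the 24 listed genes differed from the ones computed here by at most 0.0229. Alternatives were total counts, DESeq2 1.42.0 size factors, other filters and folds, and the unscratched control. Values of some genes in the lists are not reported here.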

Additional observations from a re-analysis of the deposited data

Results flagged for a closer look

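Ratios of 3 genes had intervals on opposite sides of 1 in different knockouts, relative to the same scratched parental library. None passed the size rule, and the difference between lines was not tested. The log2 ratio of Ocln was 0.23 in the Lingo1 and 0.18 in the Lingo2 knockout, against -0.41 in the Lingo3 knockout. That of Dsp was 0.24 in the Lingo3 and 0.18 in the TROY knockout, against -0.08 in the Lingo2 knockout. That of Tjp1 was 0.16, 0.21 and 0.29 in the Lingo1, Lingo3 and TROY knockouts, against -0.05 in the Lingo2 knockout.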

How the results depend on the processing

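The main limit is 1 library per group, so how far any of these values would move between cultures is unknown. No paired analysis was possible because each group has 1 library and the labels give no replicate numbers, and no replicate could be left out. None of the alternatives turned the direction of a value past the rule, and DESeq2 size factors changed no call and moved no value beyond counting error. Of the 34 counts of genes past the rule recomputed under alternatives, 29 stayed within 1.5 times the reported count. With a fold of at least 1.5 and an interval excluding 1, 5 genes passed in the Lingo1 knockout and 5 in the TROY knockout, where 11.7% and 9.09% of all genes did. With a fold of at least 3 and the nearer bound beyond 2, 2 passed in the Lingo2 knockout and 2 in the Lingo3 knockout, where 1.04% and 3.01% of all genes did. With a mean of at least 5 CPM, which removes Cdh4 and Tjp3, 1 of 22 passed in the TROY knockout, beside 1.14% of all genes. Without a filter, 6 of 36 passed in the Lingo3 knockout, beside 3.23% of all genes.

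Of 42 class medians, 30 stayed close. With total counts, the adherens junction median was 0.0779, 0.1302, 0.1039 and 0.0457 in the Lingo1, Lingo2, Lingo3 and TROY knockouts, and the desmosome median 0.1209 in the TROY knockout. With the unscratched control, the adherens junction medians were 0.077, 0.1091, 0.0805 and 0.0484, the desmosome medians 0.1081 and 0.0844 in the Lingo1 and Lingo2 knockouts, and the tight junction median -0.1644 in the Lingo1 knockout. Of 449 values of single genes, 370 stayed close, 76 moved by more than counting error and 3 changed their side of the rule, all with the unscratched control. They were Epcam in the Lingo2 and Lingo3 knockouts, at 0.94 and 0.98, and Tjp3 in the Lingo3 knockout, at -1.15.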
